A study of Rattus norvegicus with 4 samples.

Results

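The genes described here are 10 genes of tumour necrosis factor (TNF), interleukin and transforming growth factor beta (TGF-beta) signalling, chosen by name. They are the cytokines Tnf, Il1b, Il18 and Tgfb1, the receptor antagonist Il1rn, and the receptors Tnfrsf1a, Tnfrsf1b, Il1r1, Il6r and Il6st. A probe belonged to a gene where the accession in the scanner files was listed for that gene in the RefSeq rat table. This gave probes for 9 of the 10 genes, out of 22817 genes fitted in all, and each of the 9 had 1 probe. Il1r1 was matched to no probe by accession and was not analysed here.

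Total RNA of the spinal dorsal horn, the part of the cord where sensory fibres end, was measured on 4 Agilent 2-colour arrays. The rats were male, aged 6 weeks and labelled as day 10 of oxaliplatin or of vehicle treatment, with 2 arrays in each group. Oxaliplatin is a platinum chemotherapy drug known for a painful neuropathy. The labels put RNA from oxaliplatin-treated or vehicle-treated rats in Cy5, and RNA from untreated male rats of that age in Cy3. No strain, dose or number of rats per array is stated in the labels. The labels call the arrays of a group biological replicates, and p-values measure the spread between these arrays. In the fits each SE and p-value rests on 1 spread per gene, pooled over the 4 arrays and moderated across genes. An SE given with n = 2 is thus not the spread of that group alone. For Il1b the SD was 0.0439 between the oxaliplatin ratios and 0.576 between the vehicle ratios, yet both means carry the same SE.

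Values are given as the log2 ratio of Cy5 over Cy3, normalised within each array by loess, and as the normalised log2 signal of each channel. A ratio of 0 means equal channels after loess, so its sign need not match the order of the raw signals. A ratio compares treated with untreated RNA only as far as the labels go. No array had its dyes swapped, so a gap between the channels and a gap between the dyes cannot be told apart. Each group may lie on a slide of its own, and then slide and group cannot be told apart either. In tissue RNA, fewer cells of a type and less RNA per cell cannot be told apart. The labels and the data also part in another way. The dorsal horn markers were well above background in both channels on every array for 11 of 11 matched genes, but so were 11 of 11 matched markers of dorsal root ganglion neurons and Schwann cells, which lie outside the cord. The ganglion and Schwann list had a median ratio of 2.98 and 3.01 on the oxaliplatin arrays and of 2.82 and 3.24 on the vehicle arrays. All 11 were higher in Cy5 by the test against 0 in both groups (limma, adjusted p under 0.05). Of all genes, 19% were so on the oxaliplatin arrays and 23.4% on the vehicle arrays. Its summed signal was 340600 to 355700 in Cy5 and 10650 to 13110 in Cy3 on the oxaliplatin arrays, and 376800 to 384500 in Cy5 and 9458 to 14090 in Cy3 on the vehicle arrays. How far such RNA in Cy5 enters the ratios of the cytokine genes was not tested. Over all probes, 82.6% to 85.4% were well above background in Cy5 and 76.8% to 88.1% in Cy3, with the lowest Cy3 share and median signal on oxaliplatin replicate 2. The number of arrays limits the precision.

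TNF is made as a membrane protein and cut free by the protease ADAM17. It acts through TNF receptor 1, which is widely expressed and can signal inflammation or cell death, and TNF receptor 2, which is typical of immune and endothelial cells. Interleukin-1 beta and interleukin-18 are made as inactive precursors and cut by caspase-1, and the antagonist encoded by Il1rn occupies the interleukin-1 receptor without signalling. Interleukin-6 binds the receptor encoded by Il6r, and the pair signals through gp130, encoded by Il6st, to the JAK kinases and STAT3. TGF-beta 1 is stored as a latent complex and acts through receptor kinases and SMAD proteins. In the dorsal horn these cytokines are made largely by glia, and several of them change synaptic transmission in the pain pathway.

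The sequences upstream of 4 of the genes are shown. These genes were picked by their values, and no link between sequence and value was tested. Tnfrsf1a and Tnfrsf1b, both receptors of TNF, had lower ratios on the oxaliplatin arrays and Tgfb1 higher ones, without passing the test, and Il1b had the highest Cy5/Cy3 ratios of the 9. Il6r and Il6st, whose ratios also did not overlap between the groups, are not shown. Each run holds the 250 bases before the RefSeq gene start in GRCr8, 5′ to 3′ on the gene's strand, with a motif match in capitals. The windows are Tnfrsf1a at chr4:159836869-159837118, plus strand, Tnfrsf1b at chr5:162387412-162387661, minus strand, Tgfb1 at chr1:90324062-90324311, plus strand and Il1b at chr3:137036582-137036831, minus strand.
Tnfrsf1a: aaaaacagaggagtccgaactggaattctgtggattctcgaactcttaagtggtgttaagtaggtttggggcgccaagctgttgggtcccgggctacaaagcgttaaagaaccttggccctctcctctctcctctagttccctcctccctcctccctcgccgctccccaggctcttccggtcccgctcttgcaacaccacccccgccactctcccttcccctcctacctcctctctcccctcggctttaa
Tnfrsf1b: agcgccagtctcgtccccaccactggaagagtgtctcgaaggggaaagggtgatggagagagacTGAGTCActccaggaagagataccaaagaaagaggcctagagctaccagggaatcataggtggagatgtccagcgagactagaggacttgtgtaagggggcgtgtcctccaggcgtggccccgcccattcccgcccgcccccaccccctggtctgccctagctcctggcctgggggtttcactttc
Tgfb1: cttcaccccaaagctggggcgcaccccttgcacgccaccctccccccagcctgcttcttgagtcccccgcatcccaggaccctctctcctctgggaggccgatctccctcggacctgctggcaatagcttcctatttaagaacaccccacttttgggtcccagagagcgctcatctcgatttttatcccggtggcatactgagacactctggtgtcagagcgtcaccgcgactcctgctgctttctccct
Il1b: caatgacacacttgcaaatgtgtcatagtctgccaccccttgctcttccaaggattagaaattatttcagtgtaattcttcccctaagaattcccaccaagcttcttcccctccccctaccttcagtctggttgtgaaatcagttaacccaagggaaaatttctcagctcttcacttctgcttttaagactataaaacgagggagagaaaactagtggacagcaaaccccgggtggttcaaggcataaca

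RefSeq promoters were listed for all 10 genes. Both strands of the 250 bases were searched for the NF-kB consensus by name, AP-1 (TGANTCA), a STAT site (TTCNNNGAA) and a SMAD element (GTCTAG), which do not contain each other. Of 33465 windows of this length, 6.33% held the NF-kB consensus, 6.34% AP-1, 7.67% the STAT site and 7.32% the SMAD element. Among the 4 windows shown, only that of Tnfrsf1b held a match, TGAGTCA for AP-1. Of the other 6 genes, only Il1r1 held a match, to NF-kB. A match is a string of letters, not a bound site, and no match says only that these letters are not in this window. The windows differed in base content. That of Il1b was 44.0% G and C with 2 CpG pairs, against a median of 51.2% and 5 over all windows, while that of Il6r was 68.8% with 29 CpG pairs. The windows of Tnfrsf1a, Tnfrsf1b and Tgfb1 had 57.6%, 60.4% and 60.0% G and C with 11, 9 and 11 CpG pairs.

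All 9 genes with a probe were well above background in both channels on all 4 arrays, and none was left out by the filter on dim probes. The margin differed. Il6st gave Cy5 signals of at least 87.9 times and Cy3 signals of at least 53.6 times the local background. Tgfb1 was the dimmest against its background, at no less than 1.98 times in Cy5 and 1.96 times in Cy3, and Il1b fell to 1.87 times in Cy3 on vehicle replicate 2. The probes of Il1b, Il6r and Tgfb1 were each printed 10 times on an array, Il6st once and the other genes in pairs.

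The first comparison asked, within each group, how the Cy5 and the Cy3 channel of the same arrays differed. A call of higher or lower in Cy5 here and below refers to the loess-normalised ratio, not to the raw signals. In both groups Il1b and Il6r were called higher in Cy5, and Il18 lower. On the vehicle arrays Tnfrsf1a and Tnfrsf1b were also called higher in Cy5, and Il6st and Tgfb1 lower. Of the 9 genes, 2 were called higher and 1 lower on the oxaliplatin arrays (limma, adjusted p under 0.05), where 19% of all genes were called higher and 15.8% lower. On the vehicle arrays 4 were called higher and 3 lower, where 23.4% of all genes were called higher and 22.1% lower. At an unadjusted p under 0.05 the counts were 4 of 9 on the oxaliplatin arrays, against 46.4% of all genes, and 7 of 9 on the vehicle arrays, against 53.8%. Tnf and Il1rn were called in neither group. A call in 1 group and not in the other does not show that the groups differ, and no gene passed that test, as given for each gene.

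**Figure D1:**
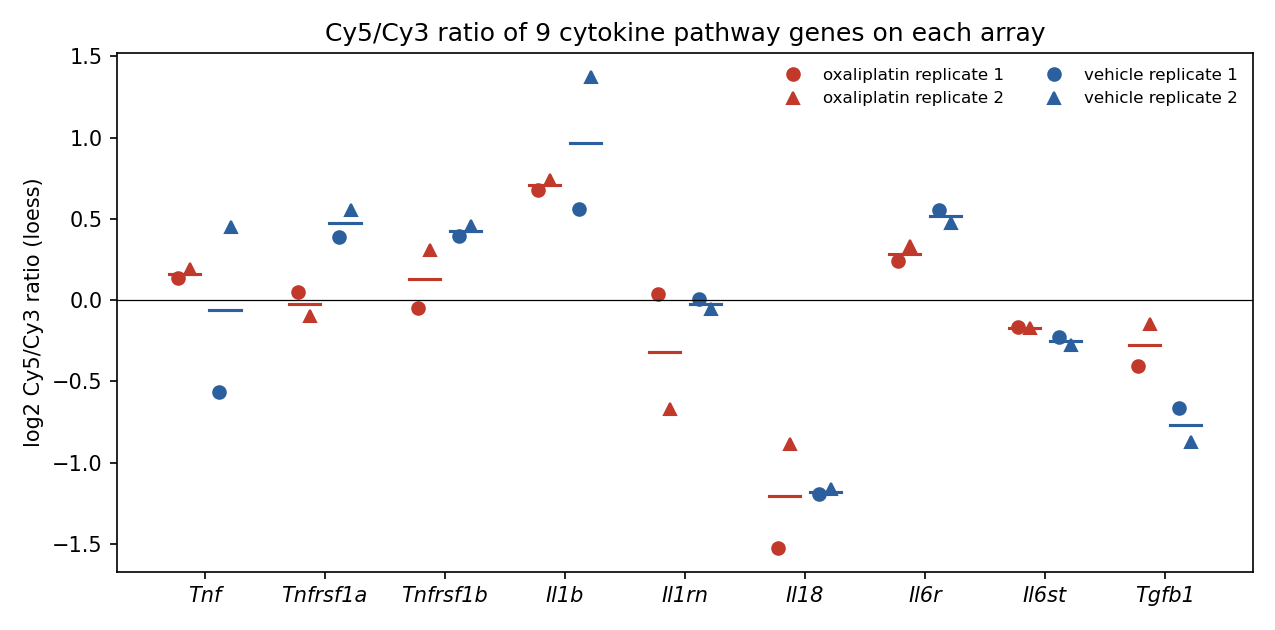
The log2 Cy5/Cy3 ratio (vertical axis, loess-normalised) of the 9 genes on each array, with oxaliplatin arrays in red and vehicle arrays in blue, circles for replicate 1 and triangles for replicate 2, and a bar at each group mean. Il18 lies below 0 and Il1b and Il6r above 0 on all 4 arrays, while the arrays of the groups are apart for Tnfrsf1a, Tnfrsf1b, Il6r, Il6st and Tgfb1.

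Il1b encodes interleukin-1 beta. Oxaliplatin replicates 1 and 2 had log2 ratios of 0.68 and 0.74, and vehicle replicates 1 and 2 of 0.56 and 1.38. All 4 were above 0, and vehicle replicate 2 stood above the other 3 arrays. The group means were 0.71 ± 0.18 (SE, n = 2) on the oxaliplatin arrays (1.63-fold, limma, adjusted p = 0.0221) and 0.97 ± 0.18 (SE, n = 2) on the vehicle arrays (1.96-fold, adjusted p = 0.00477). The oxaliplatin call was lost with the scanner software's log ratio (0.90, adjusted p = 0.0979) and when either oxaliplatin array was left out (0.74 without the first, adjusted p = 0.0544, and 0.68 without the second, adjusted p = 0.0568). The adjusted p over its 12 alternatives ran from 0.000962 to 0.0979. The vehicle mean kept its call in all 12 alternatives but was 0.56 without vehicle replicate 2. Here and below, some alternatives cannot move the estimate of a gene with 1 probe and change only its SE and adjusted p. They are the mean over probes, no filter on dim probes and the fits with a replicate block. For a group mean, leaving out an array of the other group is a further one. Between the groups the difference was -0.26 ± 0.25 (SE, n = 2 per group, 95% interval -0.85 to 0.33, adjusted p = 0.651). Leaving out vehicle replicate 1 gave -0.67, and leaving out vehicle replicate 2 gave 0.15. The Cy3 median signal of vehicle replicate 2 was 83.4, against 190.8 on vehicle replicate 1, while Cy5 was 431.3 and 450.8, so the high ratio came with a low Cy3 signal, and 7 of the 10 spots on that array were used.

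Il18 encodes interleukin-18, which drives interferon gamma from lymphocytes. The log2 ratio was -1.53 and -0.88 on the oxaliplatin arrays (replicates 1 and 2, in that order here and below) and -1.20 and -1.16 on the vehicle arrays. Every array was below 0, and the vehicle ratios lay between the oxaliplatin ratios. The normalised Cy3/Cy5 ratio was 2.31 on the oxaliplatin arrays (-1.21 ± 0.15, SE, n = 2, limma, adjusted p = 0.00142). On the vehicle arrays it was 2.26 (-1.18 ± 0.15, SE, n = 2, adjusted p = 0.00114). Before normalisation, oxaliplatin replicate 2 had a higher signal in Cy5 (2106) than in Cy3 (1060), while Cy3 was the higher on the other arrays. Both calls held in all 12 alternatives tried. The groups differed by -0.03 (95% interval -0.52 to 0.47, adjusted p = 0.967), an interval that still allows a change of either sign.

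Il1rn encodes the interleukin-1 receptor antagonist. Log2 ratios of 0.04 and -0.67 were measured on the oxaliplatin arrays, and of 0.004 and -0.06 on the vehicle arrays. Oxaliplatin replicate 2 stood alone, and the other 3 arrays were close to 0. The 2 spots on that array lay at -0.68 and -0.67. The Cy5 signals of all 4 arrays were within 9.92 to 10.10 (log2), while oxaliplatin replicate 2 had a Cy3 signal of 9.65, above the 8.95 to 9.06 of the other arrays. Before normalisation its Cy3 signal was lowest on that array (487.2, against 570.8 to 601.2), where the median Cy3 signal of all probes was also lowest (283.5, against 494 to 564). The part of that array's dim Cy3 channel in the ratio was not tested. The groups differed by -0.29 ± 0.22 (SE, n = 2 per group, adjusted p = 0.571). Without oxaliplatin replicate 1 the difference was -0.65 and was called (adjusted p = 0.0456), but it was 0.06 when the second oxaliplatin array was left out. The adjusted p over the 12 alternatives ran from 0.0456 to 1. The oxaliplatin mean, -0.32, was likewise called only without replicate 1 (-0.67, adjusted p = 0.00416, range over the alternatives 0.00416 to 0.816).

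Tnf encodes TNF itself. The oxaliplatin arrays gave log2 ratios of 0.13 and 0.19, the vehicle arrays of -0.57 and 0.45. The vehicle arrays lay on either side of both oxaliplatin arrays. The Cy5 median signals were 344.5 and 344.8 on the oxaliplatin and 323.0 and 316.0 on the vehicle arrays, against a local background of 61.0 to 68.0. The Cy3 signals were 185.0 and 109.5 on the oxaliplatin and 312.0 and 128.5 on the vehicle arrays, so Cy3 carried most of the spread. The groups differed by 0.22 ± 0.30 (SE, n = 2 per group, 95% interval -0.49 to 0.93, adjusted p = 0.761), and the sign turned without vehicle replicate 1 (-0.29). On the vehicle arrays the mean of -0.06 was 0.45 without replicate 1 and -0.57 without replicate 2, the latter called (adjusted p = 0.0267, range over the alternatives 0.0267 to 0.888).

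The second comparison asked whether the oxaliplatin and the vehicle arrays differed. In the ratio, limma called 0 genes of 22817 in either direction (0%), while 3336 genes (14.6%) had an unadjusted p under 0.05. Among the 9 genes 0 were called and 2, Tnfrsf1a and Tgfb1, had an unadjusted p under 0.05. The 2 groups did not overlap for 5 of the 9, against 49.2% of all genes: the oxaliplatin arrays were the higher for 2 (27% of all genes) and the lower for 3 (22.2%). The smallest p that an exact permutation of 2 arrays against 2 can give is 0.333, two-sided, and Tnfrsf1a, Tnfrsf1b, Il6r, Il6st and Tgfb1 reached it.

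Tnfrsf1a encodes TNF receptor 1. The log2 ratio was 0.05 and -0.10 on the oxaliplatin arrays, and 0.39 and 0.56 on the vehicle arrays. Both oxaliplatin arrays lay near 0 and both vehicle arrays above them. The groups differed by -0.50 ± 0.13 (SE, n = 2 per group, 95% interval -0.80 to -0.20, unadjusted p = 0.00611, adjusted p = 0.295). The sign was the same in all 12 alternatives, at -0.58 to -0.32, with adjusted p from 0.059 to 1. The vehicle mean of 0.47 was called (1.39-fold, adjusted p = 0.0057), a call lost without vehicle replicate 2 (0.39, adjusted p = 0.107, range over the alternatives 0.00117 to 0.107). The oxaliplatin mean of -0.03 was not called, and its sign turned with median centring (0.16) and without oxaliplatin replicate 2 (0.05).

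In each channel both normalised oxaliplatin signals of Tnfrsf1a lay above both vehicle signals. In Cy5 the normalised log2 signals were 11.23 and 11.22 on the oxaliplatin and 10.73 and 10.85 on the vehicle arrays, a difference of 0.44 ± 0.09 (SE, n = 2 per group, adjusted p = 0.164). In Cy3, labelled as untreated on every array, they were 10.13 and 10.26 against 9.30 and 9.26, a difference of 0.91 ± 0.14 (SE, n = 2 per group, adjusted p = 0.158). The lower ratio on the oxaliplatin arrays therefore came with a larger gap in the untreated channel than in the treated one. Before normalisation the Cy3 signals overlapped, at 1208 and 745 on the oxaliplatin and 771.5 and 715.2 on the vehicle arrays. The median Cy3 signal of all probes was lowest on oxaliplatin replicate 2 (283.5, against 494 to 564). The part of that dim channel in the Cy3 gap was not tested. Without vehicle replicate 1, which left 1 array in that group, the differences were 0.38 in Cy5 and 0.94 in Cy3.

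Tnfrsf1b encodes TNF receptor 2. On the oxaliplatin arrays it had log2 ratios of -0.05 and 0.31, on the vehicle arrays of 0.40 and 0.46. The groups were apart, with a gap of less than the distance between the oxaliplatin arrays. They differed by -0.30 ± 0.15 (SE, n = 2 per group, adjusted p = 0.404), and by -0.12 without oxaliplatin replicate 1. The vehicle mean of 0.43 was called (1.34-fold, adjusted p = 0.0159). That call was lost with the scanner software's log ratio (adjusted p = 0.0721) and when either vehicle array was left out (0.46 without the first, adjusted p = 0.0764, and 0.40 without the second, adjusted p = 0.133), with a range of 0.00247 to 0.133 over the alternatives. The oxaliplatin mean was 0.13, and -0.05 without replicate 2. In Cy3 the signals were 8.22 and 8.06 against 7.75 and 7.81 and the groups were apart, while in Cy5 they overlapped, at 9.11 and 9.30 against 9.09 and 9.19.

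Il6r encodes the interleukin-6 receptor. Its probe gave log2 ratios of 0.24 and 0.33 on the oxaliplatin and 0.55 and 0.48 on the vehicle arrays, all above 0. The SD of its 9 or 10 spots within an array was 0.07 to 0.09. Both groups were called higher in Cy5, at 0.29 ± 0.08 (SE, n = 2, 1.22-fold, adjusted p = 0.0352) on the oxaliplatin and 0.51 ± 0.08 (SE, n = 2, 1.43-fold, adjusted p = 0.00283) on the vehicle arrays. The vehicle call held in all 12 alternatives. The oxaliplatin call was lost in 6 of them, which included leaving out each array in turn, at 0.22 to 0.33 with adjusted p from 0.0669 to 0.139. The range over all 12 was 0.0215 to 0.139. The groups differed by -0.23 ± 0.12 (SE, n = 2 per group, 95% interval -0.50 to 0.05, adjusted p = 0.407).

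Il6st encodes gp130, the shared signalling receptor of the interleukin-6 family. Log2 ratios of -0.17 and -0.17 on the oxaliplatin arrays stood beside -0.23 and -0.28 on the vehicle arrays. The 4 values were close. The groups did not overlap, and their means differed by 0.08 ± 0.11 (SE, n = 2 per group, 95% interval -0.19 to 0.35, limma, adjusted p = 0.762). The vehicle mean of -0.25 was called lower (adjusted p = 0.0378). It was -0.06 with median centring (adjusted p = 0.693), and the call was also lost without vehicle replicate 1 (-0.28, adjusted p = 0.213) or 2 (-0.23, adjusted p = 0.328), with a range of 0.0269 to 0.693 over the alternatives. The oxaliplatin mean of -0.17 was 0.13 with median centring.

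Tgfb1 encodes TGF-beta 1. The oxaliplatin arrays had log2 ratios of -0.41 and -0.15 and the vehicle arrays of -0.67 and -0.87. The normalised ratio was below 0 on all 4 arrays, and further below on the vehicle arrays. The raw signals did not all follow this order. On the oxaliplatin arrays they were 128.4 and 145.8 in Cy5 and 118.6 and 76.9 in Cy3. On the vehicle arrays they were 147.9 and 172.2 in Cy5 and 151.8 and 196.5 in Cy3. The SD of its 9 or 10 spots within an array was 0.09 to 0.17. The vehicle mean of -0.77 ± 0.10 (SE, n = 2) was called lower (limma, adjusted p = 0.00138), a normalised Cy3/Cy5 ratio of 1.70. The call held in all 12 alternatives. The oxaliplatin mean of -0.28 ± 0.10 (SE, n = 2) was not called (adjusted p = 0.0753), but was called with 4 alternatives, among them median centring (-0.69, adjusted p = 0.0018) and the fit that left out oxaliplatin replicate 2 (-0.41, adjusted p = 0.0354), with a range of 0.0018 to 0.425. The groups differed by 0.49 ± 0.14 (SE, n = 2 per group, 95% interval 0.15 to 0.83, unadjusted p = 0.0114, adjusted p = 0.296). That difference was 0.13 where arrays were centred on their median without loess, and over the 12 alternatives the adjusted p ran from 0.055 to 1.

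**Figure D2:**
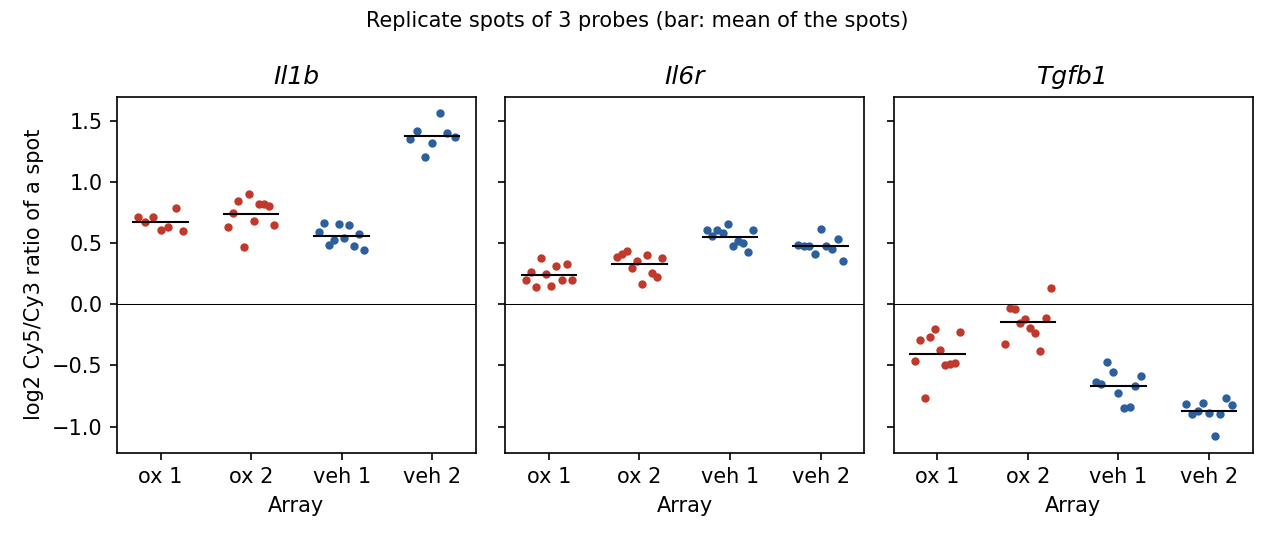
Log2 Cy5/Cy3 ratio of each replicate spot (points) of the Il1b, Il6r and Tgfb1 probes on each array, with a bar at the mean of the spots, oxaliplatin arrays in red and vehicle arrays in blue. The spots of Il1b on vehicle replicate 2, at 1.20 to 1.57, lie above every spot on the other arrays, and 4 of the 10 spots of Tgfb1 on oxaliplatin replicate 1, the lowest at -0.76, lie within the range of the vehicle spots.

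Each channel was then compared between the groups alone. In Cy5 limma called 0 genes of 22817 (0%), with 4662 (20.4%) at an unadjusted p under 0.05, and in Cy3 also 0 genes (0%), with 4753 (20.8%). Of the 9 genes, 5 had both oxaliplatin Cy5 signals above both vehicle signals and 1 below, against 28.3% and 32.1% of all genes. Counted in either direction that was 6 of 9, against 60.4% of all genes. In Cy3 it was 5 above and 2 below, against 26.8% and 31.2% of all genes, and 7 of 9 in either direction, against 58.1%. Unadjusted p was under 0.05 for 2 of the 9 in Cy5, Tnfrsf1a and Il1b, and for 1 in Cy3, Tnfrsf1a. The difference had the same sign in both channels for 8 of the 9 genes, against 79.3% of all genes. It was larger in Cy3 than in Cy5 for 7 of the 9, against 62.6% of all genes. The median difference of the 9 was 0.09 in Cy5, 0.31 in Cy3 and -0.23 in the ratio, where the medians over all genes were -0.02, -0.02 and 0.005.

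**Figure D3:**
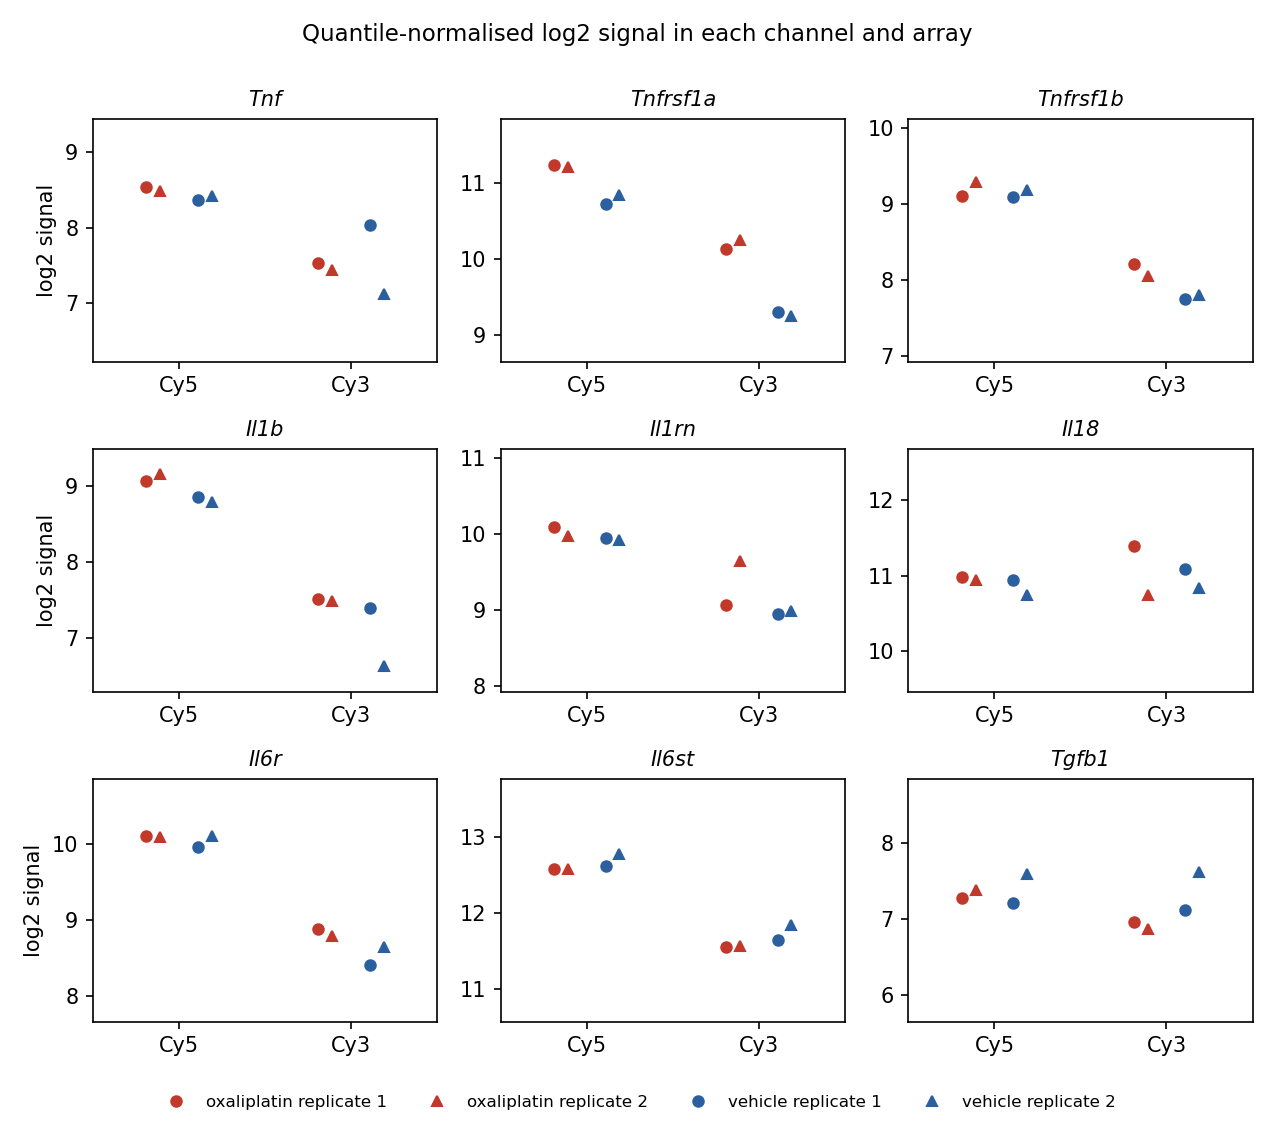
Quantile-normalised log2 signal (vertical axis, the same span of 3.2 in each panel) of the 9 genes in Cy5 and Cy3, with oxaliplatin arrays in red and vehicle arrays in blue, circles for replicate 1 and triangles for replicate 2. For Tnfrsf1a the oxaliplatin arrays lie above the vehicle arrays in both channels, and for Tnf and Il1b the vehicle arrays lie further apart in Cy3 than in Cy5.

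For Il1b the Cy5 signals were 9.07 and 9.15 against 8.86 and 8.79 on the oxaliplatin and the vehicle arrays, a difference of 0.29 ± 0.08 (SE, n = 2 per group, 95% interval 0.06 to 0.51, adjusted p = 0.21). In Cy3 it differed by 0.49 ± 0.27 (SE, n = 2 per group, adjusted p = 0.339), with signals of 7.52 and 7.49 against 7.40 and 6.62. Leaving out vehicle replicate 1 gave a Cy3 difference of 0.88, and leaving out vehicle replicate 2 one of 0.11. Tnf differed by 0.12 ± 0.08 in Cy5 and by -0.09 ± 0.31 in Cy3 (SE, n = 2 per group, adjusted p = 0.395 and 0.88). Its Cy3 difference was 0.36 without vehicle replicate 1. Tgfb1 differed by -0.07 ± 0.15 in Cy5 and by -0.46 ± 0.20 in Cy3 (adjusted p = 0.811 and 0.273). Its Cy5 difference was 0.12 without vehicle replicate 2, where its Cy3 difference was -0.20, and the Cy3 difference was -0.71 when the first vehicle array was left out. For Il18 the differences were 0.12 in Cy5 and 0.11 in Cy3, the latter -0.21 without oxaliplatin replicate 1. No difference of Tnf, Il1b, Il18 or Tgfb1 in either channel was called in any of the 9 alternatives.

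**Figure D4:**
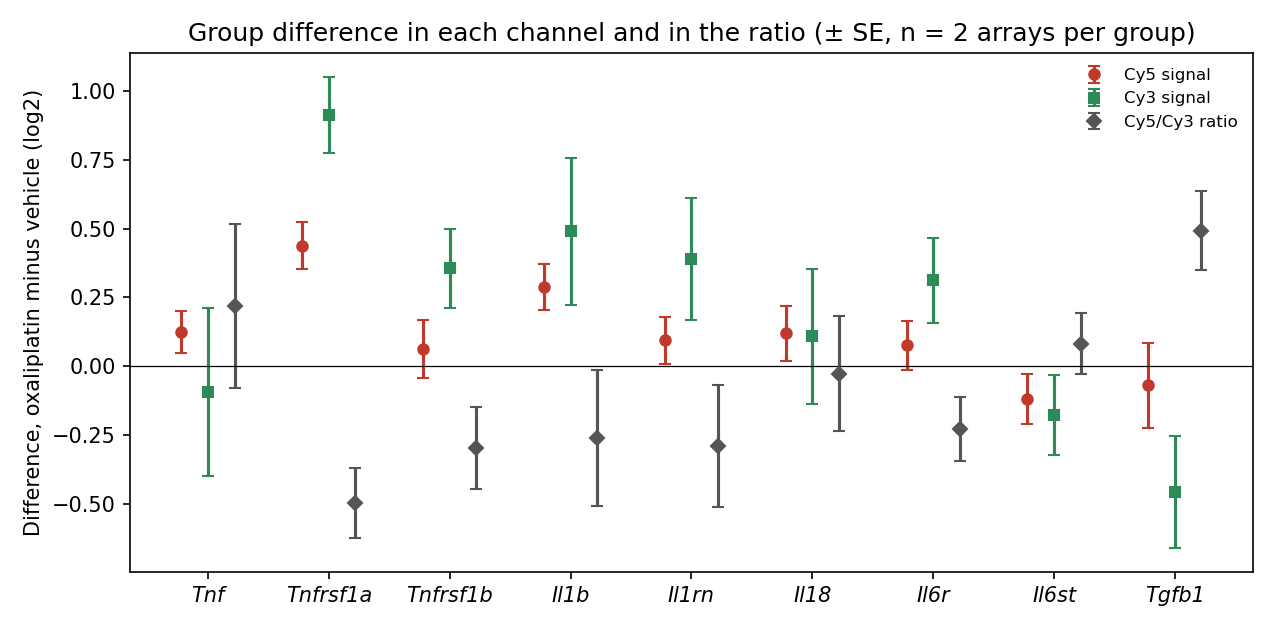
Difference between the oxaliplatin and the vehicle arrays (vertical axis, log2, oxaliplatin minus vehicle) in the Cy5 signal, the Cy3 signal and the Cy5/Cy3 ratio of the 9 genes, with bars for the SE (n = 2 arrays per group). Tnfrsf1a has positive differences in both channels, larger in Cy3 (0.91) than in Cy5 (0.44), and the most negative difference in the ratio (-0.50).

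Other genes of the same pathways were taken from lists, which include the genes above. Of the TNF list, 25 of 30 genes were fitted, and 1 was called higher in Cy5 and 9 lower on the oxaliplatin arrays, 3 higher and 9 lower on the vehicle arrays. On the oxaliplatin arrays 19% of all genes were called higher and 15.8% lower, and on the vehicle arrays 23.4% and 22.1%. Against these shares fewer genes of the list were called higher and more lower. In this and the next lists, leaving out an array or changing the fit also moved the counts over all genes, in both comparisons. Counts of a list from such fits therefore cannot be set beside the shares of the main fit. The median ratio of the TNF list was -0.12 and -0.15, below the medians of 0.03 and 0.03 over all genes. Among those called lower in both groups were Adam17, which releases TNF (-0.53 on the oxaliplatin and -1.22 on the vehicle arrays), the adaptors Tradd (-0.38 and -0.46) and Traf2 (-0.35 and -0.76), which dock on TNF receptors, and the kinase Ripk1 (-0.59 and -0.68). Lta, a cytokine that binds the same receptors as TNF, was not called (0.14 and -0.08). None of the 25 was called between the groups (0 genes, smallest adjusted p = 0.295), with a median difference of 0.10. That median was 0.008 without oxaliplatin replicate 2 and 0.02 without vehicle replicate 1, and 1 gene was called higher without oxaliplatin replicate 1 and 1 with a crossed replicate block, which pairs replicate 1 of a group with replicate 2 of the other and was chosen after seeing the data. For Adam17 that difference was 0.69 ± 0.21 (SE, n = 2 per group, adjusted p = 0.3), with -0.04 in Cy5 and -0.69 in Cy3.

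Of the interleukin-1 list, 21 of 24 genes were fitted, with 3 called higher and 5 lower on the oxaliplatin and 5 higher and 5 lower on the vehicle arrays, near the shares over all genes (19% and 15.8%, 23.4% and 22.1%). Without oxaliplatin replicate 1 the oxaliplatin counts were 2 and 3, and without vehicle replicate 2 the vehicle counts were 4 and 3. Il1rap, the partner chain of the interleukin-1 receptor, was called higher in both groups (0.77 and 0.60). Il18bp, which binds and neutralises interleukin-18, was called lower in both (-0.51 and -0.41), as was the kinase Irak1 (-0.44 and -0.89). Casp1, the protease that matures interleukin-1 beta and interleukin-18, was called lower on the oxaliplatin arrays, where its ratios were -0.90 and -0.16, and was at -0.37 on the vehicle arrays without a call (adjusted p = 0.114). Myd88, the adaptor below this receptor, was called higher on the vehicle arrays (0.74) and was at 0.22 on the oxaliplatin arrays. Its difference of -0.52 ± 0.16 (SE, n = 2 per group) was not called (adjusted p = 0.3). Il1a, Il1r2, a decoy receptor, and Il18r1 were called in neither group, and no gene of the list was called between the groups (0 genes, median difference -0.03, which turned positive with 4 alternatives, at 0.005 with median centring). Without oxaliplatin replicate 1, 1 gene was called higher and 2 lower, and with the crossed replicate block 1 was called lower.

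Of the interleukin-6 list, 20 of 22 genes were fitted, with 4 called higher and 3 lower on the oxaliplatin and 6 higher and 4 lower on the vehicle arrays, again near the shares over all genes (19% and 15.8%, 23.4% and 22.1%). Without vehicle replicate 1 the vehicle counts were 4 and 1, and 7 and 7 when 1 oxaliplatin array, whichever, was left out. Stat3, the transcription factor of the pathway, was called higher in Cy5 in both groups (0.79 and 0.80). Lifr, a partner of gp130, was called higher on the vehicle arrays (0.46) and was at 0.0004 on the oxaliplatin arrays. Il6 itself was well above background on 2 of the 4 arrays in Cy5 and on 3 in Cy3, and was not called. Jak1, Cntfr and Socs3, a feedback inhibitor, were called in neither group. Between the groups 0 genes of the list were called, with a median difference of 0.01 (-0.02 with median centring), and 1 was called higher with the crossed replicate block.

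Of the TGF-beta list, 22 of 27 genes were fitted, with 3 called higher and 2 lower on the oxaliplatin and 2 higher and 6 lower on the vehicle arrays, where 19% and 15.8%, and 23.4% and 22.1%, of all genes were called. Without vehicle replicate 2 the vehicle counts were 1 and 3, and without oxaliplatin replicate 1 the oxaliplatin counts were 3 and 1. Tgfbi, a matrix protein induced by TGF-beta, was called higher in both groups (0.59 and 0.59). Smad7, the inhibitory SMAD, was called lower in both (-0.40 and -0.82). The ligands Tgfb2 and Tgfb3, the receptors Tgfbr1, Tgfbr2 and Tgfbr3, and Ltbp1, which binds the latent complex, were called in neither group. Between the groups 0 genes were called, and the list's median difference was 0.17, against 0.005 over all genes. It was 0.09 without oxaliplatin replicate 2 or without vehicle replicate 2, and 0.29 without oxaliplatin replicate 1, where 1 gene was called higher. The groups did not overlap for 10 of the 22, close to the 49.2% of all genes, with the oxaliplatin arrays the higher for 9, against 27% of all genes. Tgfb3 differed by 0.53 ± 0.14 (SE, n = 2 per group, adjusted p = 0.295). Tgfbr1 differed by -0.02 in the ratio, while its signals differed by 0.78 in Cy5 and 0.77 in Cy3. Of 35 other interleukins and their receptors, 27 were fitted, with 8 called higher and 1 lower on the oxaliplatin and 11 higher and 3 lower on the vehicle arrays, against 19% and 15.8%, and 23.4% and 22.1%, of all genes. Leaving out the first vehicle array gave 4 and 1 on the vehicle arrays, and leaving out the second 4 and 0. With median centring the oxaliplatin split was 8 higher and 13 lower, where 6741 of all genes were called higher and 5463 lower. None was called between the groups (0 genes).

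Markers of the cells that can make these cytokines were measured beside them. All 10 microglia markers were well above background on every array and in both channels, with a summed Cy5 signal of 133100 to 138100 on the oxaliplatin and 141700 to 145200 on the vehicle arrays, and a summed Cy3 signal of 45810 to 70600 and 58020 to 65480. Of the 9 matched neutrophil and monocyte markers, 6 were well above background everywhere, with summed Cy5 signals of 2915 to 3049 and 2930 to 3022. The sums cover the 8 of these that were fitted, and Ngp, a neutrophil granule gene, was not well above background in Cy5 on any array. Oligodendrocyte markers had summed Cy3 signals of 216100 to 265900 on the oxaliplatin and 340200 to 356300 on the vehicle arrays, and a median ratio difference of 0.52. Their median ratio was -1.26 on the oxaliplatin and -1.72 on the vehicle arrays, with 7 and 8 of 8 called lower, against 15.8% and 22.1% of all genes. For astrocyte markers it was -0.57 and -1.10, with 5 and 6 of 8 called lower and 1 higher in each group. Of all genes, 19% and 23.4% were called higher. Astrocyte markers had a median ratio difference of 0.42, with 7 of 8 above 0, against 51.1% of all genes. The astrocyte groups did not overlap for 6 of the 8, against 49.2% of all genes, with the oxaliplatin arrays the higher for 5, against 27%. Without overlap, these arrays were the higher for 5 and the lower for 0 of the 8 oligodendrocyte markers, against 27% and 22.2% of all genes. For the 10 microglia markers the counts were 2 and 1, and for the 8 endothelium markers 0 and 1, to be read beside the same 27% and 22.2%. Astrocyte summed signals were 301300 to 341700 in Cy5 on the oxaliplatin and 259600 to 289600 on the vehicle arrays, and 136100 to 140400 and 138300 to 152500 in Cy3. The part of these cell types in the differences of the cytokine genes was not tested.

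As a description of pattern, the genes with a symbol whose 8 single-channel signals ran most like those of each gene were found by Pearson correlation over 4 arrays and 2 channels. They were Gpr183 and Wnt5a for Tnfrsf1a (r = 0.996 and 0.996) and Cd1d1 and Ly96 for Il6r (r = 0.999 and 0.998). For Il18 the closest were Apeg3 and Zfp503, at only r = 0.846 and 0.767. The 8 values share 4 arrays, and the step between Cy5 and Cy3 makes up much of each pattern, so that high values are common among 13935 genes.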

How the data were processed

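Members and lists were chosen with earlier results of these data known. Per the file headers, the deposited scanner files (Agilent Feature Extraction 10.7.1.1; the submitters' processing notes name 8.5.1.1) hold median intensity per spot and local background, processed intensity and a log10 ratio of Cy5 over Cy3. The deposited value table holds log10 ratios of the same direction, within 0.005 of the scanner's, with medians of -0.00492 to 0, and no source here states its centring. The deposited flags are other values that mark spots.

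Signals were corrected with normexp (offset 50) and ratios normalised by loess in limma 3.58.1 under R 4.3.3, since the files hold median and no mean signals. Control spots (4259) and outlier spots were left out and spots of a probe averaged. Of 30367 probes, 18758 had a symbol through unversioned RefSeq accessions (GRCr8 table), and 25998 with Cy5 well above background on at least 2 arrays were kept. The brightest probe stood for a gene, leaving 22817. Channels were quantile-normalised separately. Tests were lmFit and eBayes (two-sided, residual df 2), Benjamini-Hochberg adjusted across the 22817 genes at 0.05, tested on simulated data. Named genes were all members, pathway genes listed by name (Tnfaip3 and Smad3 had no matched probe, and 1 gene is not reported here), and for some members the 2 genes of most similar pattern. Unmapped columns numbered 0.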

Additional observations from a re-analysis of the deposited data

How the results depend on the processing

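For the difference between the groups in the ratio, 102 values of the 9 genes over 12 alternatives kept their sign and their side of the threshold, 5 turned sign and 1 became called. Part of this sameness was fixed in advance. The mean over probes, no filter on dim probes and both replicate blocks return the same estimate for these genes, so only the SE and adjusted p could change. The genes called, 0 by limma, rose to 356 higher and 180 lower with a crossed replicate block, chosen after seeing the data because same-numbered arrays deviated with r = -0.222. They were 1 lower with the replicate block, and without each array in turn 2 to 628 higher and 1 to 499 lower. With the replicate block the oxaliplatin call of Il6r (adjusted p = 0.0746) and the vehicle call of Il6st (adjusted p = 0.0845) were lost, but the replicate numbers are not shown to pair the arrays. Against 0, 6741 genes were called higher and 5463 lower on the oxaliplatin arrays with median centring, and leaving out an array gave 3070 to 4295 and 2521 to 3646. On the vehicle arrays leaving out an array gave 2651 to 6265 higher and 2348 to 5873 lower, with the lowest counts without vehicle replicate 2. Of calls on the vehicle arrays 51.4% were higher, and 63.6% with median centring; on the oxaliplatin arrays 54.6%, and 44.6% from the scanner's own ratio. For the Cy5 signal, the leave-one-out counts were 0 to 2968 genes higher and 0 to 2448 lower, and in Cy3 alone 0 to 1007 and 0 to 289, the highest without vehicle replicate 1. Where an arm held 1 array, it was assumed to vary like the other group.

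Signs turned as follows, and the cause was not tested. With median centring the group difference of Il18 was 0.13, and the oxaliplatin ratios of Tnfrsf1a and Il6st were 0.16 and 0.13. Taken from the scanner's own values, the oxaliplatin ratio of Tnfrsf1b was -0.0061. When an array was left out, the group difference in the ratio was -0.35 to 0.30 for Il18, -0.65 to 0.064 for Il1rn, -0.29 to 0.73 for Tnf and -0.67 to 0.15 for Il1b. The oxaliplatin ratio was -0.10 to 0.050 for Tnfrsf1a, -0.051 to 0.31 for Tnfrsf1b and -0.67 to 0.038 for Il1rn, and the vehicle ratio -0.57 to 0.45 for Tnf and -0.057 to 0.0045 for Il1rn. The difference in Cy5 was -0.032 to 0.16 for Tnfrsf1b and -0.26 to 0.12 for Tgfb1, and in Cy3 -0.21 to 0.43 for Il18, which included -0.017 without vehicle replicate 2, and -0.55 to 0.36 for Tnf. Signal over background limits Tgfb1, and Il1b in Cy3.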

Other observations

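Cflar, an inhibitor of caspase-8 below the death receptors, had log2 Cy5/Cy3 ratios of 2.26 on the oxaliplatin and 2.25 on the vehicle arrays (means, n = 2 each), the highest of the TNF list in both groups. It was singled out after its values were seen, and the genes that follow were also not named in advance. Il10rb, a chain of the interleukin-10 receptor, was at 0.87 and 1.03, and Cntf, the ciliary neurotrophic factor, at 0.85 and 0.82. Tnfrsf12a and Ltbr, receptors of the TNF family, were at -1.06 and -1.03 and at -0.79 and -0.91. All 5 were called in both groups (limma, adjusted p under 0.05), and their groups' means lay within 0.18 of each other. Since none of the 5 was named in advance, these calls and the likeness of the groups describe picked genes and test nothing.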
